A study of Arabidopsis thaliana with 10 samples.

Results

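The 9 genes described here encode the chain elongation steps that lengthen methionine before it enters aliphatic glucosinolate synthesis. They were chosen by name from the 33602 loci of the count table, with earlier results of these data known. Shares over all tested genes are therefore given as background and not as a test of the set. The genes are MAM1 (AT5G23010), MAM3 (AT5G23020), BCAT4 (AT3G19710), BCAT3 (AT3G49680), IPMI2 (AT2G43100), IPMI1 (AT3G58990), IIL1 (AT4G13430), IMD1 (AT5G14200) and BAT5 (AT4G12030). All 9 passed the filter on low counts and were tested among 16721 genes. RNA was sequenced from whole Arabidopsis thaliana Col-0 seedlings grown for 8 d under 16 h light and 8 h dark on Murashige-Skoog medium with 1% sucrose. Every seedling carried a transgene for dCas9-KRAB, a nuclease-dead Cas9 fused to a repressor domain, whose transcription is switched on by the steroid dexamethasone (Dex). In line P1-12 the same construct also expresses the P1 single-guide RNA from the U6-26 promoter, and this guide directs the repressor to MORF2, the gene of a plastid RNA editing factor. KRAB is a line with dCas9-KRAB and no guide. The 10 libraries form 5 groups of 2. For P1-12 these are seedlings on DMSO, the solvent control, on 0.025 μM Dex (the low dose) and on 0.25 μM Dex (the high dose), written P1-12 (+DMSO) and so on. For KRAB they are seedlings on DMSO and on the high dose. Each genotype is 1 transgenic line, so line and construct cannot be told apart.

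Glucosinolates are sulfur-rich defence compounds of the Brassicaceae, and the aliphatic ones of Arabidopsis are built mostly from methionine with added methylene groups. BCAT4 first removes the amino group of methionine in the cytosol, and BAT5, a carrier of the plastid envelope, brings the resulting 2-oxo acid into the plastid. There the acid is condensed with acetyl-CoA by MAM1 or MAM3, isomerised by an isopropylmalate isomerase made of a large subunit (IIL1) and a small one (IPMI1 or IPMI2), and oxidatively decarboxylated by the dehydrogenase IMD1. The product either goes round again or is given its amino group back by BCAT3. The cycle resembles leucine synthesis, with which it shares IIL1, and BCAT3 also acts on branched-chain amino acids. BAT5 moves a precursor and not a glucosinolate, and the carriers of finished glucosinolates are GTR1, GTR2 and GTR3, which are given further on.

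The libraries held 9139050 to 40544617 counts, the 2 deepest being KRAB (+DMSO) replicate 2 and KRAB (+0.25 μM Dex) replicate 1. MORF2, the targeted gene, stood at 111.7 and 117.1 CPM (reads counted for a gene scaled to a common library size, with TMM correction for library composition) in P1-12 (+DMSO) and at 51.9 and 55.6 CPM in P1-12 (+0.25 μM Dex), a log2 fold change of -1.09 (SE 0.07). Libraries that share a group are described as biological replicates in the study's methods, while the labels do not say whether they came from separate cultures. The p-values below measure the spread between these libraries. In whole seedlings, fewer cells of a type and less RNA per cell cannot be told apart.

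At 0.25 μM Dex all 9 genes fell in P1-12, and 6 of them fell more than 10-fold. The steepest was BCAT4, the entry enzyme, and the shallowest was MAM3. Set against P1-12 (+DMSO), the median log2 fold change of the 9 was -4.17, while that of all tested genes was -0.0023. In edgeR's quasi-likelihood test, with Benjamini-Hochberg adjustment over all tested genes, each of the 9 passed the threshold of 0.05 as lower, a call that 29.2% of tested genes received. Of these, 8 were SDEGs, the study's term for genes changed by 1 or more on the log2 scale with an adjusted p under 0.0001. Lower SDEGs made up 8.06% of tested genes. Together the 9 genes took 0.1645% and 0.2009% of all counts in P1-12 (+DMSO) and 0.03881% and 0.03801% in P1-12 (+0.25 μM Dex). Their summed level differed little between the 2 high-dose libraries, at 370.3 and 361.1 CPM, although single genes did differ there. Most of that sum came from IIL1, so it says little about the 6 genes that fell more than 10-fold.

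**Figure D1:**
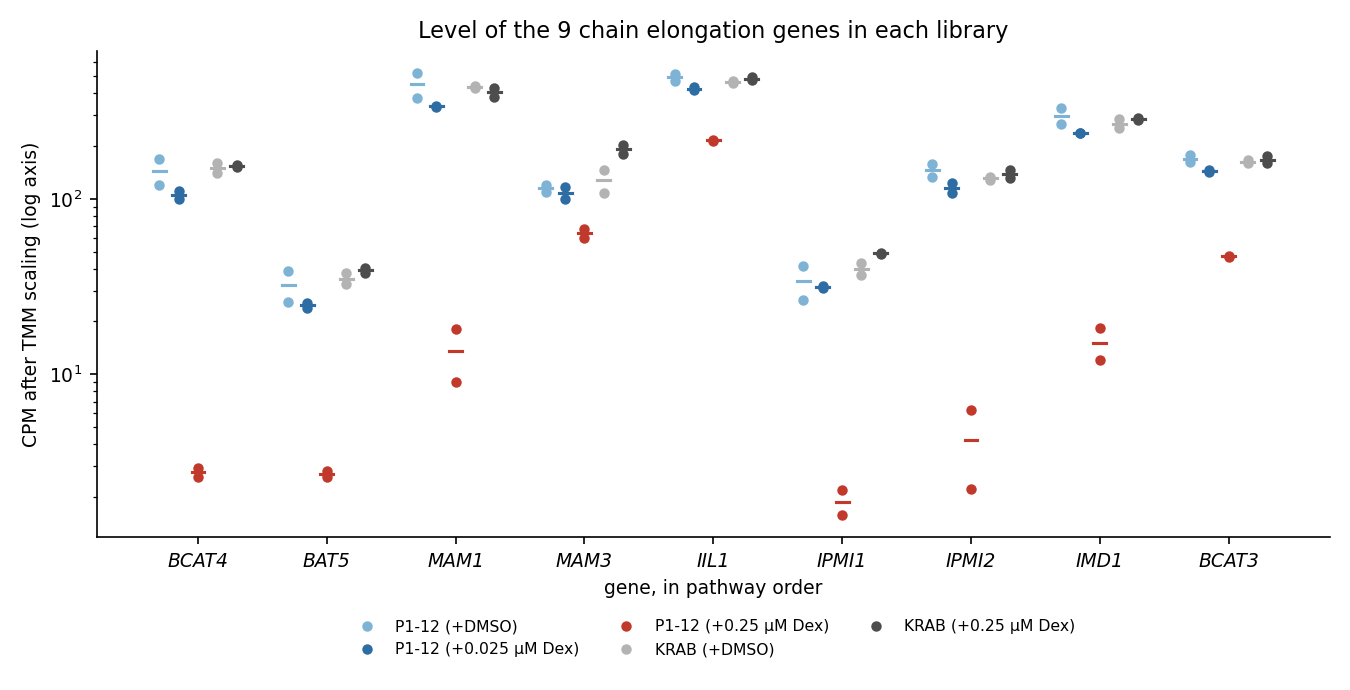
Level of each gene in every library (points) with the group mean (short line), in CPM after TMM scaling on a log axis, with genes in pathway order. Both P1-12 (+0.25 μM Dex) libraries lie below all 8 other libraries for every gene, by a wide gap for BCAT4, BAT5, MAM1, IPMI1, IPMI2 and IMD1 and a narrow one for MAM3. The share of all tested genes that are separated in this way is not given here.

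BCAT4 and BAT5 stand at the way into the plastid. BCAT4 had 120.1 and 168.3 CPM in P1-12 (+DMSO), 99.8 and 110.1 at 0.025 μM Dex, and 2.92 and 2.60 at 0.25 μM Dex. KRAB gave 160.8 and 139.9 CPM on DMSO and 150.7 and 155.9 CPM on Dex. Only 28 reads were counted for it in each high-dose library. The fall against P1-12 (+DMSO) was 52.2-fold (log2 fold change -5.71, SE 0.20, adjusted p = 5.588e-11), and the groups did not overlap. BAT5 gave 25.8 and 39.0 CPM in P1-12 (+DMSO), 24.0 and 25.5 at the low dose, and 2.82 and 2.60 at the high dose, beside 32.7 to 40.4 CPM over the 4 KRAB libraries. The carrier therefore kept 8.36% of its P1-12 (+DMSO) level where BCAT4 kept 1.92%, and its log2 fold change was -3.58 (SE 0.23, adjusted p = 9.912e-09). The 95% intervals of these fold changes, -6.13 to -5.28 for BCAT4 and -4.07 to -3.09 for BAT5, did not overlap.

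MAM1 and MAM3 catalyse the same condensation and lie in tandem on chromosome 5, yet their levels parted. MAM1 measured 376.3 and 521.2 CPM in P1-12 (+DMSO), 333.1 and 337.7 at the low dose, 18.1 and 9.0 at the high dose, with 377.9 to 441.4 CPM in KRAB. MAM3 measured 109.3 and 120.2, then 99.5 and 116.9, then 59.8 and 67.1 CPM in P1-12 at the 3 doses in rising order, while KRAB had 146.5 and 107.7 CPM on DMSO and 202.5 and 179.4 CPM on Dex. MAM1, which makes short-chain products, fell 33.6-fold (log2 fold change -5.07, SE 0.22, adjusted p = 2.69e-10). MAM3, which also makes the long-chain ones, fell 1.81-fold (log2 fold change -0.85, SE 0.13, adjusted p = 7.312e-05) and was the 1 gene of the 9 that missed the SDEG threshold. The 95% intervals were -5.54 to -4.60 and -1.14 to -0.57. The MAM genes are near copies of each other, so reads may have been split between them and their separate values are uncertain to that extent. On the TAIR10.1 assembly MAM1 spans bases 7703041 to 7706973 and MAM3, listed there as IMS2, spans 7718118 to 7721866, both on the plus strand and 11144 bases apart with no annotated gene between them.

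The isomerase subunits moved unequally too. IIL1, the large subunit that the leucine pathway shares, was the most abundant of the 9 per length in every group. Its libraries held 469.6 and 512.0 CPM in P1-12 (+DMSO), 413.6 and 433.7 at the low dose and 213.3 and 216.5 at the high dose, with 453.7 to 492.2 CPM over the 4 KRAB libraries. It fell 2.28-fold (log2 fold change -1.19, SE 0.07, adjusted p = 5.507e-09). The small subunit genes fell much further. IPMI2 went from 132.5 and 157.8 CPM to 122.4 and 108.1 CPM at the low dose and 6.26 and 2.23 CPM at the high dose, with 128.4 to 146.3 CPM in KRAB. IPMI1 went from 26.4 and 41.4 CPM to 31.9 and 31.0 CPM and then 2.19 and 1.58 CPM, with 37.0 to 49.4 CPM in KRAB. These are falls of 35.0-fold for IPMI2 (log2 fold change -5.13, SE 0.22, adjusted p = 2.461e-10) and 18.0-fold for IPMI1 (-4.17, SE 0.26, adjusted p = 8.608e-09). At the high dose 60 and 24 reads of IPMI2 and 21 and 17 of IPMI1 were counted, so counting error is largest for IPMI1. By library totals IPMI1 had 2.30 and 1.66 CPM there, on either side of the filter's minimum of 2 CPM, so its place among the tested genes rested on 1 library.

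The last steps are the dehydrogenase and the final aminotransferase. IMD1 had 266.2 and 328.8 CPM in P1-12 (+DMSO), 238.2 and 237.2 at the low dose, 18.3 and 12.1 at the high dose and 251.3 to 289.8 in KRAB. BCAT3 had 161.7 and 176.5, then 141.9 and 145.7, then 46.7 and 47.4 CPM in P1-12, and 160.0 to 174.1 in KRAB. IMD1 fell 19.8-fold (log2 fold change -4.30, SE 0.15, adjusted p = 5.614e-11) and BCAT3 3.59-fold (log2 fold change -1.85, SE 0.08, adjusted p = 2.18e-10). The 9 genes thus split into 6 with log2 fold changes between -5.71 and -3.58 and 3, namely BCAT3, IIL1 and MAM3, between -1.85 and -0.85, with no gene in between. The split was seen in the values and was not tested.

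**Figure D2:**
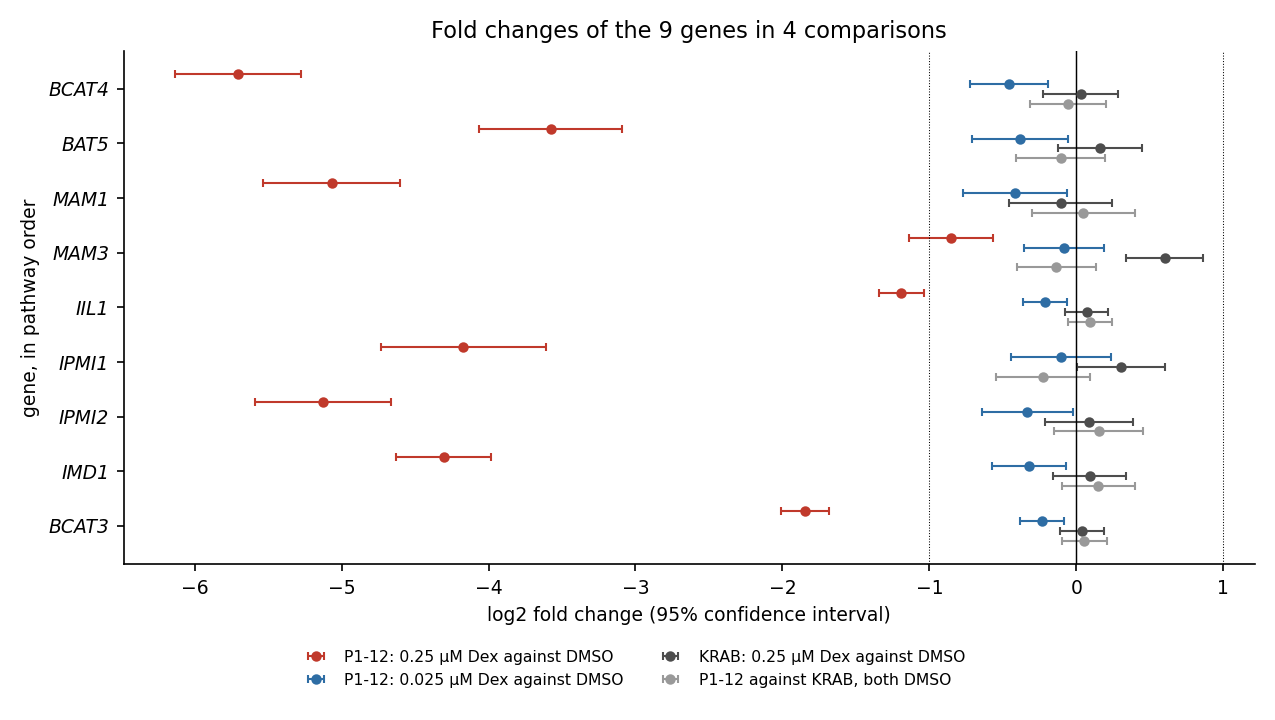
Log2 fold changes (points) with 95% confidence intervals of the 9 genes in 4 comparisons, and dotted lines at log2 fold changes of -1 and 1. The high-dose P1-12 values range from -5.71 for BCAT4 to -0.85 for MAM3, whereas low-dose values lie between -0.46 and -0.08 and those of KRAB between -0.11 and 0.60.

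Replicate gaps were unequal among the genes. Between the high-dose libraries, replicate 1 exceeded replicate 2 by 1.49 on the log2 scale for IPMI2, by 1.01 for MAM1 and by 0.60 for IMD1, while BCAT3 and IIL1 differed by -0.02 each. In P1-12 (+DMSO) replicate 1 lay below replicate 2 for all 9 genes, by a log2 difference of -0.13 for IIL1 and BCAT3 and up to -0.65 for IPMI1. Each of these gaps is smaller than the high-dose change of the same gene.

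At 0.025 μM Dex, a dose 10 times lower, every gene had a mean below that of P1-12 (+DMSO), but 1 of 9 passed the test. BCAT4 was lower, at -0.46 on the log2 scale (SE 0.12, adjusted p = 0.03582). This call was lost without P1-12 (+DMSO) replicate 2 (log2 fold change -0.21, adjusted p = 0.3409), without either low-dose library (-0.39 and -0.53) and without either high-dose library (adjusted p = 0.05676 and 0.05359), and in a fit of only the groups compared (adjusted p = 0.05155). The other 8 ranged from -0.42 for MAM1 (SE 0.16, adjusted p = 0.1525) to -0.08 for MAM3 (SE 0.13, adjusted p = 0.7786), and the median of the 9 was -0.32, or -0.47 to -0.18 without 1 library. It was lowest without P1-12 (+DMSO) replicate 1 and highest without replicate 2 of that group. Lower calls were made for 3.46% of tested genes and higher calls for 4.55%. At an unadjusted p under 0.05, 7 of the 9 were lower in edgeR and 5 in DESeq2. The share of all tested genes at that unadjusted limit is not given here, and the 3.46% is not its background. MORF2 itself had a log2 fold change of -0.10 at this dose and did not pass the test.

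Between the doses, all 9 genes were lower at 0.25 than at 0.025 μM Dex, a call made for 26.4% of tested genes. The median log2 fold change was -3.98, from -5.25 for BCAT4 to -0.77 for MAM3. Of the 9, 7 were lower SDEGs, as were 883 of the 16721 tested genes. IIL1 missed the fold limit narrowly at -0.98 (SE 0.07).

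In KRAB, where Dex acts without the guide, 1 of the 9 changed, and in the opposite direction. MAM3 rose by 0.60 on the log2 scale (SE 0.12, adjusted p = 0.01788), while 2.06% of tested genes were called higher and 0.813% lower. Its values of 202.5 and 179.4 CPM lay above 146.5 and 107.7 CPM without overlap, but the call was lost without KRAB (+DMSO) replicate 2 (0.38, adjusted p = 0.2147) and without KRAB (+0.25 μM Dex) replicate 1 (0.51, adjusted p = 0.1), the 2 deepest libraries. The other 8 lay between -0.11 for MAM1 and 0.30 for IPMI1 (SE 0.14, adjusted p = 0.2831). The 95% intervals of BCAT4 (-0.22 to 0.29), IIL1 (-0.08 to 0.22) and BCAT3 (-0.11 to 0.19) bound any change in these genes well inside their high-dose change in P1-12.

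The lines did not differ detectably without Dex. For P1-12 (+DMSO) against KRAB (+DMSO), log2 fold changes of the 9 ran from -0.23 for IPMI1 to 0.15 for IPMI2, 0 of 9 passed edgeR's test or DESeq2's, and 0 were below an unadjusted p of 0.05 in either. Higher calls were made for 0.012% of tested genes. Against KRAB (+0.25 μM Dex), which shares the drug and the fusion protein, P1-12 (+0.25 μM Dex) was lower in all 9 genes, as it was in 30.9% of tested genes, and all 9 were SDEGs, against 7.49% of tested genes. Here MAM3 had a log2 fold change of -1.59 (SE 0.13), and the median of the 9 was -4.24. This comparison and the one with P1-12 (+DMSO) share the high-dose libraries.

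The difference of the Dex response between P1-12 and KRAB was tested as an interaction term. All 9 genes responded more negatively in P1-12, as did 25.1% of tested genes, and all 9 met the SDEG limits, as did 5.91%. The difference was -5.74 for BCAT4 (SE 0.24), -3.74 for BAT5 (SE 0.27), -1.88 for BCAT3 (SE 0.10) and -1.26 for IIL1 (SE 0.10) on the log2 scale, and its median over the 9 was -4.39.

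Levels per length, in RPKM (CPM divided by exon length in kilobases), put the genes in order. In P1-12 (+DMSO), IIL1 (238.7 ± 14.6 RPKM, SD, n = 2), MAM1 (218.8 ± 49.9) and IMD1 (174.4 ± 25.9) led, and the spread of MAM1 overlaps those of both its neighbours in this order. IPMI2 (121.1 ± 14.9), BCAT4 (99.4 ± 23.5) and BCAT3 (96.5 ± 5.96) followed, the spread of BCAT4 overlapping those of IPMI2 and BCAT3, then MAM3 (62.8 ± 4.23), IPMI1 (27.2 ± 8.52) and BAT5 (14.7 ± 4.22). At 0.25 μM Dex the order changed below the top. IIL1 stayed first at 104.5 ± 1.1 RPKM, MAM3 moved from rank 7 to rank 2 with 34.7 ± 2.81 RPKM and BCAT3 to rank 3 with 26.8 ± 0.30 RPKM. IMD1 (8.89 ± 2.57), MAM1 (6.60 ± 3.12) and IPMI2 (3.54 ± 2.38) came next, each overlapping its neighbour, and BCAT4 (1.90 ± 0.16), IPMI1 (1.51 ± 0.35) and BAT5 (1.23 ± 0.07 RPKM) came last, each overlapping its neighbour in this order. IPMI2 and BCAT4 overlapped as well, so the ranks below BCAT3 are not settled by these libraries.

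Most of the steps have relatives outside the pathway, and the shares of each family per length shifted toward them. These shares, computed from RPKM, are a description with no test. MAM1 held 62.5% to 79.4% of MAM1 plus MAM3 in the 8 other libraries and 21.2% and 10.7% in the high-dose ones, so MAM3 became the major transcript of the pair. Among the isomerase small subunits, IPMI1 and IPMI2 stood beside IPMI SSU1 (AT2G43090), which serves leucine synthesis. IPMI SSU1 made up 46.3% to 54.4% of the family in the 8 other libraries and 93.8% and 97.3% at the high dose. The summed small subunit level was 291.5 ± 22.4 RPKM in P1-12 (+DMSO) and 114.0 ± 0.78 RPKM in P1-12 (+0.25 μM Dex). IMD1 held 59.1% to 67.8% of the dehydrogenase family beside the leucine enzymes IMD2 and IMD3, and 14.3% and 10.1% at the high dose.

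The aminotransferases showed a rise as well as falls. BCAT4 held 34.7% to 45.9% of the 6 BCAT genes' summed RPKM in the 8 other libraries and 1.98% to 2.08% at the high dose. BCAT2, another branched-chain aminotransferase, held 1.51% to 8.90% and then 38.1% to 44.1%. Its level rose from 13.6 and 16.2 CPM in P1-12 (+DMSO) to 29.7 and 31.6 CPM at 0.025 μM Dex and 74.8 and 60.5 CPM at 0.25 μM Dex. BCAT2 was the only gene of the leucine branch and paralog list called at the low dose (log2 fold change 1.04, SE 0.14, adjusted p = 0.0004602), and at the high dose it reached 2.18 (SE 0.13, adjusted p = 7.909e-09). In KRAB it was lower with Dex, at -0.72 (SE 0.15, adjusted p = 0.01894).

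**Figure D3:**
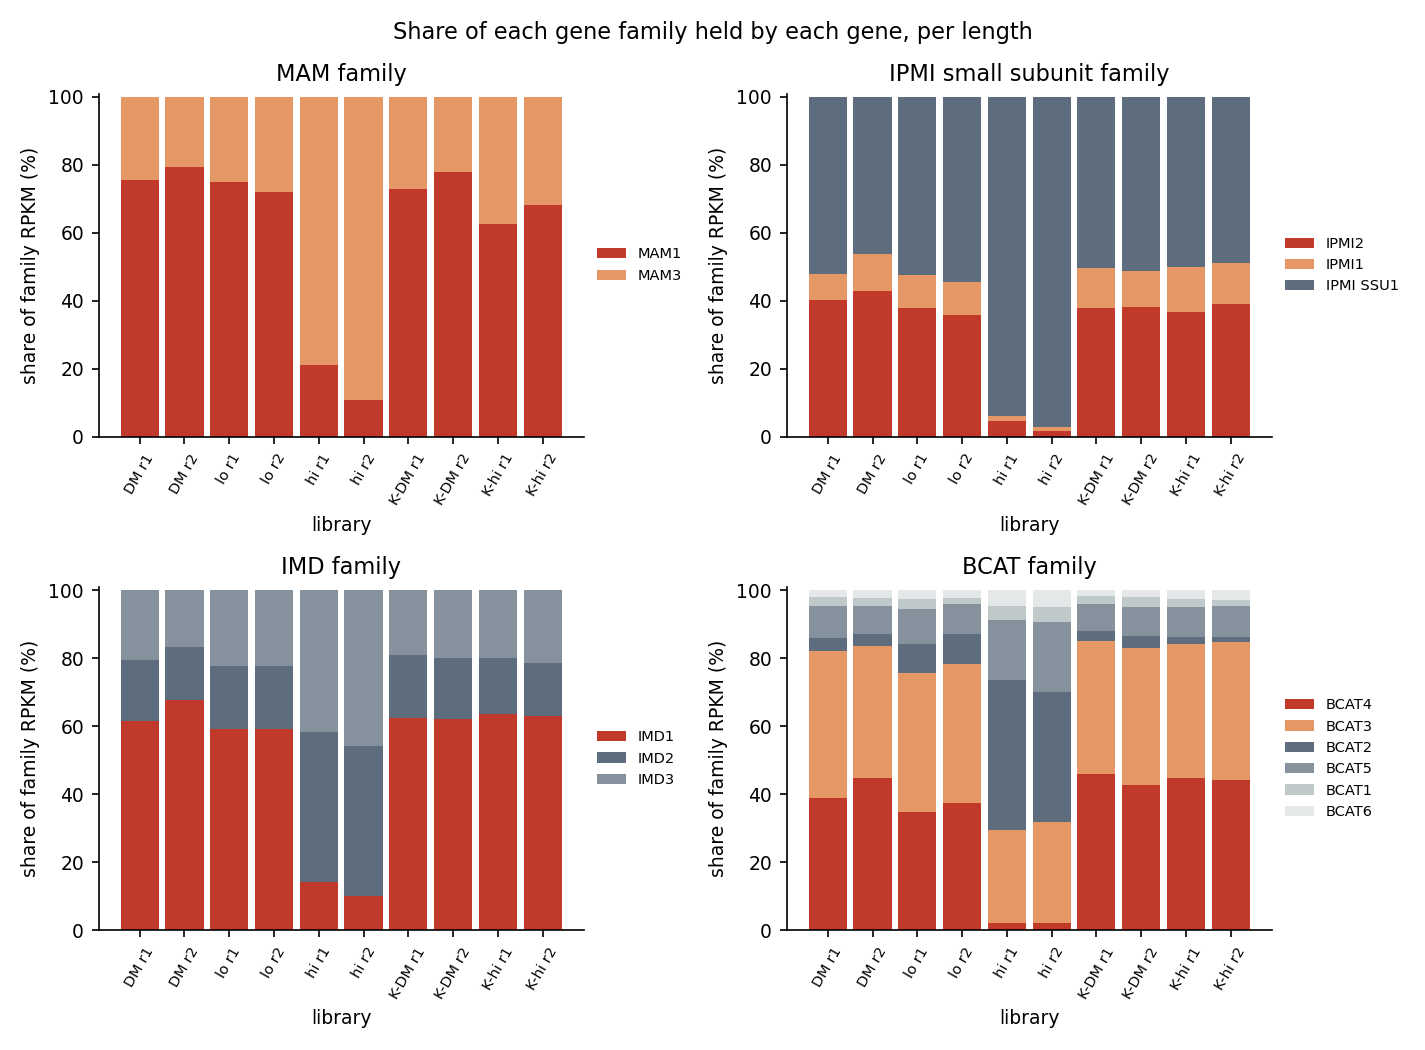
Share of the summed RPKM of each family held by each gene, as stacked bars that add to 100% in every library. DM, lo and hi are P1-12 with DMSO, 0.025 and 0.25 μM Dex, K-DM and K-hi are KRAB with DMSO and 0.25 μM Dex, and r1 and r2 are replicates. Red and orange mark the chain elongation genes and greys their relatives: at the high dose IPMI SSU1 takes 93.8% and 97.3% of its family and BCAT2 takes 38.1% to 44.1% of the BCAT family.

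The leucine branch enzymes and the paralogs of the 9 genes fell too, by less. IIL1, which leucine synthesis shares, is counted among the 9. Of the 14 other tested genes, 10 were lower and 1 higher at 0.25 μM Dex, where 29.2% of tested genes were lower and 28.3% higher. The median was -0.39 and none was a lower SDEG. IPMI SSU1 fell by 0.39 on the log2 scale (SE 0.06, adjusted p = 0.0001165), from 160.2 and 158.7 CPM to 118.6 and 124.2 CPM. The isopropylmalate synthases IPMS1 and IPMS2, which start the leucine branch as MAM1 and MAM3 start this one, had log2 fold changes of -0.33 (SE 0.07) and -0.49 (SE 0.09). IMD2 had -0.48 (SE 0.09) and IMD3 -0.65 (SE 0.08). Of the carriers related to BAT5, BASS2 (-0.87, SE 0.08), which carries pyruvate, and BASS4 (-0.93, SE 0.10) fell most. In isoleucine and valine synthesis, 3 of 4 tested genes were lower, and the lowest was DHAD at -0.78 (SE 0.08).

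IPMI2 and IPMI SSU1 are also neighbours on chromosome 2, IPMI2 beginning 150 bases past the end of IPMI SSU1 on the same strand. Their log2 fold changes at the high dose, -5.13 and -0.39, had intervals far apart. The bases just upstream of IPMI1 and IPMI2 were compared because both fell steeply from different chromosomes, at -4.17 and -5.13. Other genes of the 9 lay as near to each of them, MAM1 at -5.07 and IMD1 at -4.30. IPMI1 and IPMI2 belong to 1 gene family, and a part of the match in their fall was not tested. Below are the 150 bases before the annotated start of each gene, from the RefSeq TAIR10.1 assembly at chr2:17920497-17920646 (plus strand) and chr3:21798304-21798453 (minus strand), with the bases that are identical in the best ungapped match between them in capitals.
IPMI2: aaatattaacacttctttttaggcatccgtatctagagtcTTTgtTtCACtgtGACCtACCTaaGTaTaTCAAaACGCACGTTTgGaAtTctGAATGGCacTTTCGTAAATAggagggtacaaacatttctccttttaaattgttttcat
IPMI1: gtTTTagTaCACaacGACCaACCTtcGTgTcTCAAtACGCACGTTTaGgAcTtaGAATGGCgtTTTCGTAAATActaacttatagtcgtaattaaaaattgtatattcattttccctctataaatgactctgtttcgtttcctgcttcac
The match covers 72 bases, of which 53 (73.6%) are identical. It begins 110 bases before the start of IPMI2 and 148 bases before that of IPMI1. With 1 point for a match and -1 for a mismatch over 250 upstream bases it scored 34, and the other 35 pairs among the 9 genes scored 9 to 15. Over its whole length the IPMI2 stretch matched no other gene's 250 bases at more than 41 positions, among 26711 genes and on both strands. Both copies hold an AC element, a motif class bound by R2R3-type MYB factors, at the same place in the match, ACCTACC in IPMI2 and ACCAACC in IPMI1.

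The same letters were searched in the 250 bases upstream of all 9 genes, on both strands. ACCTACC or ACCAACC, which may overlap each other, occurred in 4 of 9, namely IPMI1, IPMI2, IIL1 and BAT5, and in 3.81% of 26711 genes. Separately, ACCTACC was found in 1 of 9 and 1.16% of genes, and ACCAACC in 3 of 9 and 2.71%. The G-box CACGTG, a motif that bHLH factors such as MYC2 bind, occurred in 1 of 9, IIL1, and in 6.58% of genes. Of the W-box core forms that WRKY factors bind, TTGACC was in 0 of 9 and in 12.2% of genes, and TTGACT was in 1 of 9, IPMI1, and in 19.1% of genes. The 100 bases before the starts of IIL1 (chr4:7807985-7808084, minus strand) and BAT5 (chr4:7210707-7210806, plus strand) show where these letters lie, in capitals, the BAT5 copy being on the opposite strand.
IIL1: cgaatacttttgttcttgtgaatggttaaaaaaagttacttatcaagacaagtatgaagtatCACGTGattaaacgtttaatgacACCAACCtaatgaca
BAT5: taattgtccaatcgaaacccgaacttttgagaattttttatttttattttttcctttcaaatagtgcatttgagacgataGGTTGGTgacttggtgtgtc
The AC element begins 15 bases before the start in IIL1 and 20 bases before it in BAT5. The other 5 genes hold none in the 250 bases. The IPMI1 and IPMI2 copies lie at the same place in their match, so they need not be independent occurrences. Whether the AC element has a part in the fall was not tested.

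The factors and enzymes around the pathway did not all move with it. MYB28, MYB29 and MYB76 activate aliphatic glucosinolate genes. MYB28 had 33.2 and 26.4 CPM in P1-12 (+DMSO) and 10.8 and 9.09 CPM at the high dose (log2 fold change -1.59, SE 0.15, adjusted p = 5.816e-07). MYB29 and MYB76 did not pass the filter on low counts. With edgeR's looser filter both were lower at the high dose. MYB29 had -7.57 (SE 0.60, adjusted p = 1.395e-07) and MYB76 had -7.06 (SE 1.31, adjusted p = 0.0005076), sizes that rest on counts near 0. MYB29 had 139 and 134 counts in P1-12 (+DMSO), 97 and 65 at the low dose, 1 and 0 at the high dose and 96 to 357 in KRAB, and MYB76 had 7 to 34 counts in the 8 other libraries and 0 in both at the high dose. Among the indole glucosinolate activators, MYB34 fell by 1.78 on the log2 scale (SE 0.10) while MYB51 rose by 5.27 (SE 0.11), from 6.57 and 6.61 CPM to 261.3 and 248.5 CPM. MYB51 was also higher at the low dose (3.54, SE 0.12) and in KRAB with Dex (1.44, SE 0.12). MYB122, also an indole glucosinolate activator, lay below the filter and was higher at the high dose with edgeR's looser filter (2.11, SE 0.53, adjusted p = 0.003882). Of the bHLH partners, MYC3 (0.80, SE 0.08) and MYC4 (0.33, SE 0.11) were higher, and MYC2 (0.05, SE 0.19) did not pass the test.

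Downstream, 12 of 18 genes of core structure and side chain modification passed the filter, with 5 lower, all SDEGs, and 5 higher. With edgeR's own, looser filter, 17 were tested and 10 were lower and 5 higher, where 27.4% of 19964 tested genes were lower and 27.9% higher. GSTU20 (-5.35, SE 0.16), a glutathione transferase, and CYP83A1 (-4.78, SE 0.17), which oxidises the aldoximes made from elongated methionine, fell within the range of the 6 steepest chain elongation genes, followed by UGT74C1 (-2.02, SE 0.13). GSL-OH, which hydroxylates a finished side chain, rose by 1.39 (SE 0.09). The filter asks for more than 2 CPM in at least 9 libraries, so a gene that is near 0 in both high-dose libraries is removed by it, as 5 genes of this list were. AOP3, the other gene left out, had 0 counts in all 10 libraries. CYP79F1, the enzyme that receives elongated methionine, had 1092 and 1969 counts in P1-12 (+DMSO) and 10 and 8 at the high dose. In the fit with the looser filter its log2 fold change was -7.09 (SE 0.37, adjusted p = 2.561e-09), and that of CYP79F2 was -4.90 (SE 0.30, adjusted p = 1.218e-08). FMOGS-OX1 had 134 and 287 counts and then 2 and 4, and GSTF11 had 64 and 106 and then 0 and 5. AOP2, annotated for side chain modification, had 55 and 130 counts and then 0 and 1.

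Genes of methionine supply moved both ways. Of 11 tested genes, 5 were lower and 2 higher at 0.25 μM Dex, where 29.2% of tested genes were lower and 28.3% higher, and the median was -0.15. The methionine synthase MS2 fell by 1.55 (SE 0.08), whereas MS1 at -0.15 (SE 0.08, adjusted p = 0.1053) and the committed enzyme CGS1 at 0.05 (SE 0.07, adjusted p = 0.5529) did not pass the test. MGL, which breaks methionine down, rose by 2.53 (SE 0.13).

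The carriers of finished glucosinolates moved in both directions. GTR1 fell from 45.9 and 60.9 CPM to 19.8 and 20.7 CPM at 0.25 μM Dex (log2 fold change -1.40, SE 0.13, adjusted p = 5.23e-07). It was lower at 0.025 μM Dex too (-0.46, SE 0.12, adjusted p = 0.03011) and higher in KRAB with Dex (0.49, SE 0.11, adjusted p = 0.03375). GTR2 rose by 0.72 (SE 0.11, adjusted p = 6.708e-05) and GTR3 by 1.14 (SE 0.08, adjusted p = 3.283e-08).

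**Figure D4:**
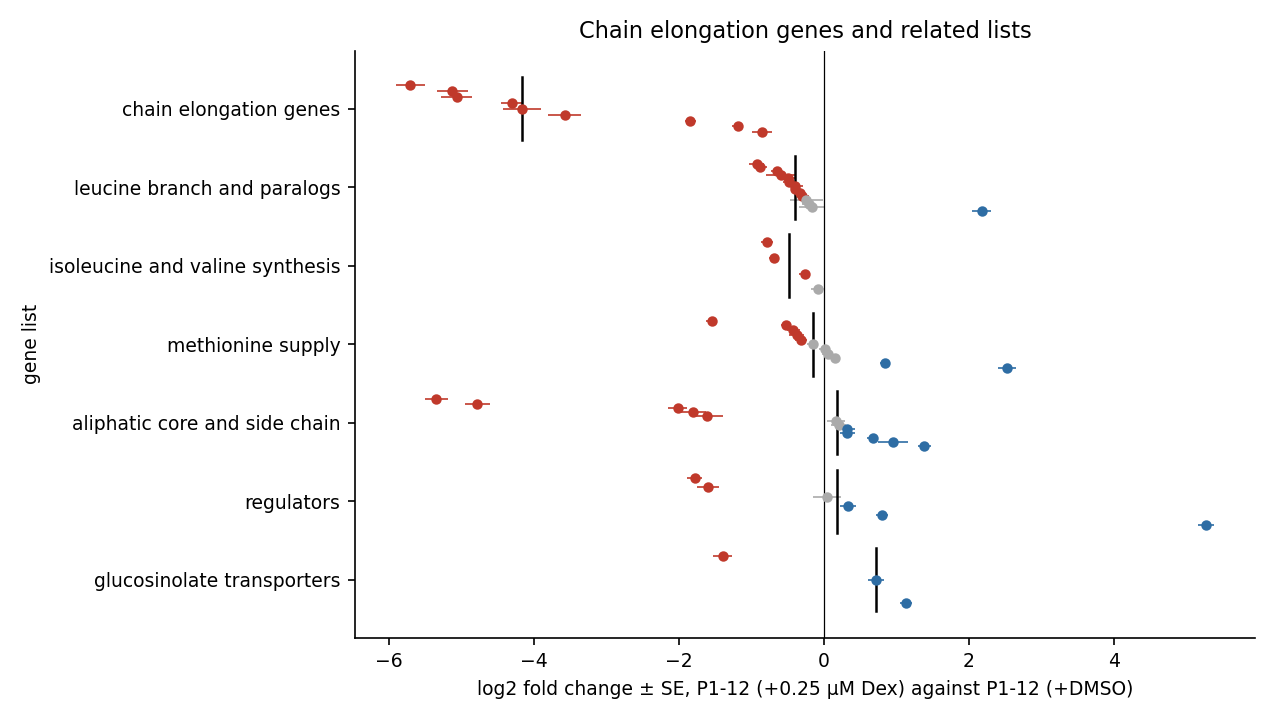
Log2 fold changes ± SE of P1-12 (+0.25 μM Dex) against P1-12 (+DMSO) for each tested gene of 7 lists, red where lower and blue where higher at an adjusted p under 0.05, grey otherwise, with a vertical bar at each list's median. The chain elongation genes have a median of -4.17 and the leucine branch and paralogs -0.39. Genes below the filter, such as CYP79F1, are not drawn.

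The flanking genes give the local background. Of 32 annotated genes within 2 places of a member, 15 passed the filter, of which 6 were lower and 3 higher at the high dose, with a median of -0.04. Among all tested genes 29.2% were lower and 28.3% higher. The median leaves out neighbours below the filter. With edgeR's looser filter, PME61 (-3.82, SE 0.27), ATCSLA15 (-3.87, SE 0.63), MYB84 (-2.04, SE 0.64) and AT3G58980 (-1.03, SE 0.41) were lower as well. HAK5, MPL1, MYB37 and TET12 did not pass the test in that fit. BAM2, a receptor kinase gene beside BCAT3, had -2.01 (SE 0.11), and ARC5, a chloroplast division gene 775 bases from BCAT4, had -1.37 (SE 0.12). Overlapping genes can share reads where strand is not used in counting, and whether it was is not given. IKU2 overlaps BCAT4 by 307 bases on the other strand and had at most 1 count in any library. AT5G14210 overlaps IMD1 by 25 bases on the other strand and fell by 1.17 (SE 0.11).

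Across the 10 libraries, 8 of the 9 genes followed the mean profile of the set with Pearson's r of 0.987 to 0.998, and MAM3 with 0.866. That mean includes the gene itself, which raises r. The 2 high-dose libraries lie apart from the rest and set most of these values, which are descriptions over libraries that share groups. Of all tested genes outside the 9, those most like the mean profile were DJ1F (r = 0.9992, log2 fold change at the high dose -3.02), FTSZ1-1 (0.9985, -1.14), FLA1 (0.9974, -1.76), AT1G21440 (0.9974, -3.01) and UGT74C1 (0.9971, -2.02), and then LTP6, CYP83A1, AT1G20380, MYB34 and AT3G61770.

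Every list of tissue markers held called genes. Among all tested genes, 29.2% were lower, 28.3% higher and 8.06% lower SDEGs at the high dose. The counts of the small root, vascular and shoot lists were not tested against these shares. All 5 photosynthesis markers were lower SDEGs at the high dose, and their summed level was 26380 and 25750 CPM in P1-12 (+DMSO) and 10000 and 9397 CPM in P1-12 (+0.25 μM Dex). Of 6 vascular markers 2 were higher and 1 lower, and the sum went from 298.9 and 314.1 to 433.3 and 446.8 CPM. Of 7 root markers 2 were higher and 1 lower, with sums of 232.4 and 228.3 and then 235.9 and 257.8 CPM. The lower one was an SDEG at a log2 fold change of -2.91, and the highest value in that list was 0.45. Of 5 tested shoot markers outside photosynthesis, 1 was higher and 3 lower. The sums over all 6 listed, STM included, were 134.3 and 145.5 and then 136.4 and 120.0 CPM. They therefore contain the rise of STM given next and are not sums of the 5 tested genes. STM, the shoot meristem marker of this list, lay below the filter and had 28 and 29 counts in P1-12 (+DMSO) and 136 and 110 at the high dose (log2 fold change 2.42, SE 0.30, adjusted p = 1.079e-05 with the looser filter). Every tested marker exceeded 2 CPM in at least 9 libraries. The part of these marker changes in the fall of the 9 genes was not tested.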

How the data were processed

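The authors isolated RNA from 2 samples per group, and processed the paired-end reads with Trimmomatic (trimming), TopHat2 (alignment to the TAIR10 genome) and HTSeq (counting per locus). Tool versions and whether counting used strand are not given in the sources used here. They deposited raw counts for 33602 loci in 10 libraries (0 unused columns), 8820 of them at 0 throughout.

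Genes with CPM over 2 in at least 9 libraries (16721) were fitted with edgeR 4.0.16 in R 4.3.3 (quasi-likelihood test, TMM scaling, 5 group means, Benjamini-Hochberg adjustment). With 2 libraries per group the spread was pooled over all groups. Alternatives were DESeq2 1.42.0, its size factors, no filter, edgeR's filterByExpr, only the groups compared, a replicate block and 10 fits leaving out 1 library, the last also with the tested genes held fixed (added after seeing the data). The fits were checked on simulated counts. RPKM used exon lengths of RefSeq TAIR10.1, which matched 32835 loci. The count table holds no coordinates, so those given are RefSeq's. Replicates differed by more than counting noise in each group (chi-square per degree of freedom 2.78 to 6.66).

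The members and lists were chosen with earlier results of these data known. All 9 members are named. Regulators, transporters and paralogs are named singly, other lists by at most 4 genes with the largest high-dose change, and 2 neighbours on each side and the 10 most alike genes were examined. Exceptions, chosen after their values were seen, are genes below the filter and MS1 and CGS1.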

Additional observations from a re-analysis of the deposited data

Results flagged for a closer look

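The Dex response differed between P1-12 and KRAB for all 9 genes, by edgeR's interaction test adjusted over all tested genes. The difference, P1-12 minus KRAB on the log2 scale, was -4.96 for MAM1, -1.45 for MAM3, -5.74 for BCAT4, -1.88 for BCAT3, -5.21 for IPMI2, -4.48 for IPMI1, -1.26 for IIL1, -4.39 for IMD1 and -3.74 for BAT5. For MAM3 the difference combines a log2 fold change of -0.85 in P1-12 with one of 0.60 in KRAB, so it exceeds the fall in P1-12 by itself.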

How the results depend on the processing

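No called fold change of the 9 genes changed sign under an alternative. At 0.25 μM Dex against P1-12 (+DMSO), 9 of 9 were lower under the 6 alternatives that keep all libraries or all libraries of the groups compared. Without 1 library the count was 8 to 9, with medians of -4.15 to -3.71, because the filter, applied again to 9 libraries, left IPMI1 out of 9 of these 10 fits. With the genes tested held as for all 10 libraries, a choice made after seeing the data, 9 of 9 were lower in each of the 10 fits, and IPMI1 lay between -4.46 and -3.82 (largest adjusted p 2.287e-06 in edgeR). The low-dose count of 1 lower gene became 2 with DESeq2's size factors and 5 with no filter, and 0 to 2 without 1 library. In KRAB the count of 1 higher gene became 2 with no filter and 0 with only the groups compared, and 0 to 1 without 1 library. With coding length, the median RPKM of the 9 was 136.1 in P1-12 (+DMSO), 115.8 in P1-12 (+0.025 μM Dex), 7.85 in P1-12 (+0.25 μM Dex), 141.2 in KRAB (+DMSO) and 143.9 in KRAB (+0.25 μM Dex), against 99.4, 82.0, 6.60, 103.6 and 105.6 with exon length, since coding length is shorter. Over all genes, lower and higher calls in the low-dose comparison were 579 and 761, and 990 and 1231 with no filter. In KRAB they were 136 and 344, then 497 and 920 with no filter and 30 and 147 with only the groups compared. Between the lines with DMSO they were 0 and 2, then 35 and 127 with no filter, 1 and 12 with DESeq2 and 0 and 4 with filterByExpr. Without KRAB (+DMSO) replicate 2 the KRAB calls were 16 and 85, and without P1-12 (+0.025 μM Dex) replicate 2 the low-dose calls were 69 and 339. The cause was not tested. Replicate numbers did not pair the libraries (correlation of deviations -0.127 to 0.071 over 10 pairs of groups), and with a replicate block the high-dose median was -4.17, with 9 of 9 lower and no member call changed. Depth limits IPMI1 most, with 17 and 21 counts at the high dose.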
